A study of Mus musculus with 9 samples.

Results

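The effect of dietary protein on the liver transcriptome was examined on the low-fat background, where LF-HP fed mice were set against LF-NP fed mice at the same week of feeding. The comparison rested on 4 of the 9 arrays of the series, which were chosen by their diet labels: LF-HP at 1 and 12 weeks, and LF-NP at 1 and 12 weeks. The LF-HP diet gave 10% of energy as fat, 50% as protein and the remaining 40% as carbohydrate, and the LF-NP diet gave 10% as fat, 15% as protein and 75% as carbohydrate. Milk protein took the place of cornstarch and sucrose, so more protein and less carbohydrate came together and cannot be told apart. All animals were male C57Bl/6J mice that had eaten LF-NP during a run-in, and the listed ages were 13 weeks after 1 week of diet and 22 weeks after 12 weeks. They ate a calibrated meal before the liver was taken. The other 5 arrays were HF-HP (35% fat, 50% protein, 15% carbohydrate) and HF-NP (35% fat, 15% protein, 50% carbohydrate) at both weeks, and a reference pool taken at the end of the run-in at 12 weeks of age, which had also eaten LF-NP. The 2 LF-NP pools and the reference pool are called the 3 LF-NP-fed pools.

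Each array held the pooled liver RNA of 5 mice. With 2 pools a side and 1 per week, no diet was replicated within a week. The fit behind the p-values and standard errors also took in the HF-HP and HF-NP pools, and left 3 residual degrees of freedom. These measured how unevenly the differences between diets changed from 1 week to 12 weeks, in low-fat and high-fat pools together. The spread between mice was not measured. With the low-fat pools alone and the week in the fit, 0 genes passed the adjusted test in either direction. Values were log2 RMA levels, on which a difference of 1 is a doubling, and 19938 genes had a value. RMA compresses the differences of weakly expressed genes, so their size can be understated here.

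The liver takes up dietary amino acids from portal blood, moves their nitrogen through aminotransferases into the urea cycle and burns or converts the carbon skeletons. Starch and sugar instead feed glycolysis and fatty acid synthesis, which are driven in hepatocytes by insulin through SREBP-1c (Srebf1) and by sugar metabolites through ChREBP (Mlxipl). Cholesterol synthesis is controlled by SREBP-2, and PPARA drives fatty acid oxidation genes. The liver also holds Kupffer cells, its resident macrophages, which express complement and scavenger receptor genes.

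Arrays were alike, with correlations over genes between 0.9926 and 0.9973, and 12 hepatocyte markers, Alb among them, averaged 13.07 to 13.17 in all 9 pools, against a median of 5.85 over all genes. The LF-HP pool at 12 weeks had a lower upper quartile (7.60) than 7 of the other pools (7.70 to 7.76), a trait shared with the HF-NP pool at 12 weeks (7.62). The LF-HP pool at 1 week stood highest of all pools for the metallothioneins Mt1 and Mt2 and for the glucocorticoid-responsive Fkbp5. The LF-NP pool at 12 weeks stood apart for Dmbt1, a mucosal glycoprotein, at 8.93 against 3.34 to 3.96 in the other 8 pools, and the duct keratin Krt19 was at 5.98 there against 5.13 to 5.33 elsewhere. The part these pools had in the results below was not tested beyond leaving each out.

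Few genes passed the test on these pools. By limma over all genes with Benjamini-Hochberg adjustment, 0 genes rose (0%) and 2 fell (0.01%) in LF-HP livers. At an unadjusted p under 0.05, 592 genes were higher (2.97%) and 1273 lower (6.38%) in LF-HP livers, and these shares are the background for the gene groups. The split was 68.3% lower, and 54.3% lower (864 higher and 1027 lower) when the arrays were quantile normalised again. LF-HP was above LF-NP at both weeks for 4227 genes (21.2%) and below for 6018 (30.2%). Both LF-HP pools lay above all 3 LF-NP-fed pools for 1670 genes (8.38%) and below all 3 for 2526 (12.7%).

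At least a 1.5-fold difference at both weeks was reached by 52 genes that were higher (0.261%) and by 43 that were lower (0.216%) in LF-HP livers, and at least 2-fold by 16 and 7. The correlation of the differences at 1 and 12 weeks across genes was 0.31 (Pearson), and 0.45 for genes above the median level. Genes are not independent replicates, and each week's difference shares no pool with the other's. Of the 52 higher genes, 43 (82.7%) were also higher in HF-HP than in HF-NP livers at both weeks, and of the 43 lower genes, 31 (72.1%) were lower at both weeks there. The corresponding shares over all genes were 23.7% and 19.9%.

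**Figure D1:**
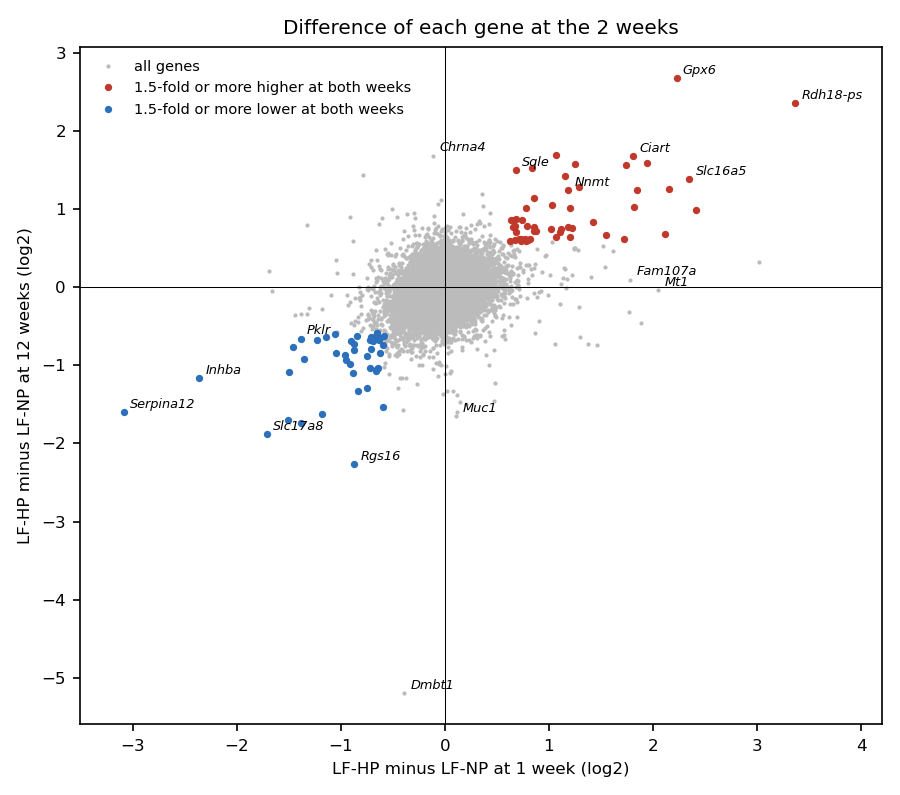
Difference between LF-HP and LF-NP at 1 week (x axis, log2) and at 12 weeks (y axis, log2), 1 point per gene for 19938 genes. The 52 genes at least 1.5-fold higher and the 43 at least 1.5-fold lower at both weeks are coloured, and Dmbt1 at the bottom is a single-pool value of LF-NP at 12 weeks.

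The 2 genes that fell encode Slc17a8, a vesicular glutamate transporter, and Gask1a. Slc17a8 was at 6.70 and 6.50 in LF-HP livers (1 and 12 weeks), against 8.41 and 8.39 in LF-NP livers and 8.89 in the reference pool, a difference of -1.80 ± 0.12 (SE) with an adjusted p of 0.0464 (limma). Gask1a was at 5.60 and 5.68 in LF-HP livers, against 7.11 and 7.38 in LF-NP livers and 6.44 in the reference pool (-1.60 ± 0.12, adjusted p = 0.0477, limma). Both genes lay outside all 3 LF-NP-fed pools, and they were the only ones past the threshold in this fit. Neither was called when any 1 of the 8 diet pools was left out.

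Other genes with large differences at both weeks missed the adjusted threshold. Osgin1, an oxidative stress responsive gene, was at 8.49 and 8.32 in LF-HP livers, against 9.87 and 10.06 in LF-NP livers and 9.31 in the reference pool (-1.56 ± 0.14, adjusted p = 0.0789). Serpina12, which encodes the secreted serpin vaspin, was at 5.17 and 6.43 in LF-HP livers, against 8.24 and 8.03 in LF-NP livers and 7.51 in the reference pool. The LF-HP pools were below every LF-NP-fed pool for both genes, as that choice required. Inhba, the gene of the activin A subunit, was at 6.38 and 7.19 in LF-HP livers, against 8.74 and 8.35 in LF-NP livers. Egr1, an immediate early transcription factor, was at 5.80 and 5.71 in LF-HP livers, against 6.74 and 6.64 in LF-NP livers. The remaining lower genes by the same rule were Cyp2d40, Apoa4, Gabbr2, Fabp2, Lgr5 and Rgs16. Their mean differences ran from -0.94 (Fabp2) to -1.57 (Rgs16). The pools of both sides did not overlap for any of these genes, which the rule required.

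Among higher genes, Ciart, a repressor of the circadian clock, was at 9.23 and 9.21 in LF-HP livers, against 7.42 and 7.53 in LF-NP livers and 7.42 in the reference pool (1.74 ± 0.16, adjusted p = 0.0789). Nnmt, which methylates nicotinamide, was at 12.34 and 12.11 in LF-HP livers, against 11.15 and 10.86 in LF-NP livers and 11.17 in the reference pool (1.22 ± 0.12, adjusted p = 0.0887). Cd36, a fatty acid transporter, was at 10.01 and 9.51 in LF-HP livers, against 8.16 and 8.26 in LF-NP livers and 9.05 in the reference pool (1.54 ± 0.15, adjusted p = 0.0789). The rule that chose these genes required all LF-HP values to lie above every LF-NP-fed pool, and none of the 3 passed the adjusted test. Rdh18-ps, an annotated retinol dehydrogenase pseudogene, had the largest mean difference, 2.86 ± 0.41. Gpx6, a glutathione peroxidase, was at 9.22 and 9.25 in LF-HP livers, against 6.57 to 7.03 in the 3 LF-NP-fed pools. For Gpx6 the LF-HP pools were nearly equal and the 3 LF-NP-fed pools close together. Acmsd, which diverts tryptophan breakdown from NAD synthesis, was at 10.14 and 9.60 in LF-HP livers, against 8.40 and 8.03 in LF-NP livers. Etnppl, which breaks down phosphoethanolamine, was at 11.33 and 11.37 in LF-HP livers, against 10.30 and 10.32 in LF-NP livers. The acute phase genes Orm2 and Orm3 are near copies, so their probes may share signal, and the reference pool for Orm2 (9.72) was close to the LF-HP pool at 1 week (9.75). Slc16a5, Hapln1 and Lrtm1 completed the 12, with mean differences of 1.87, 1.41 and 1.38.

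**Figure D2:**
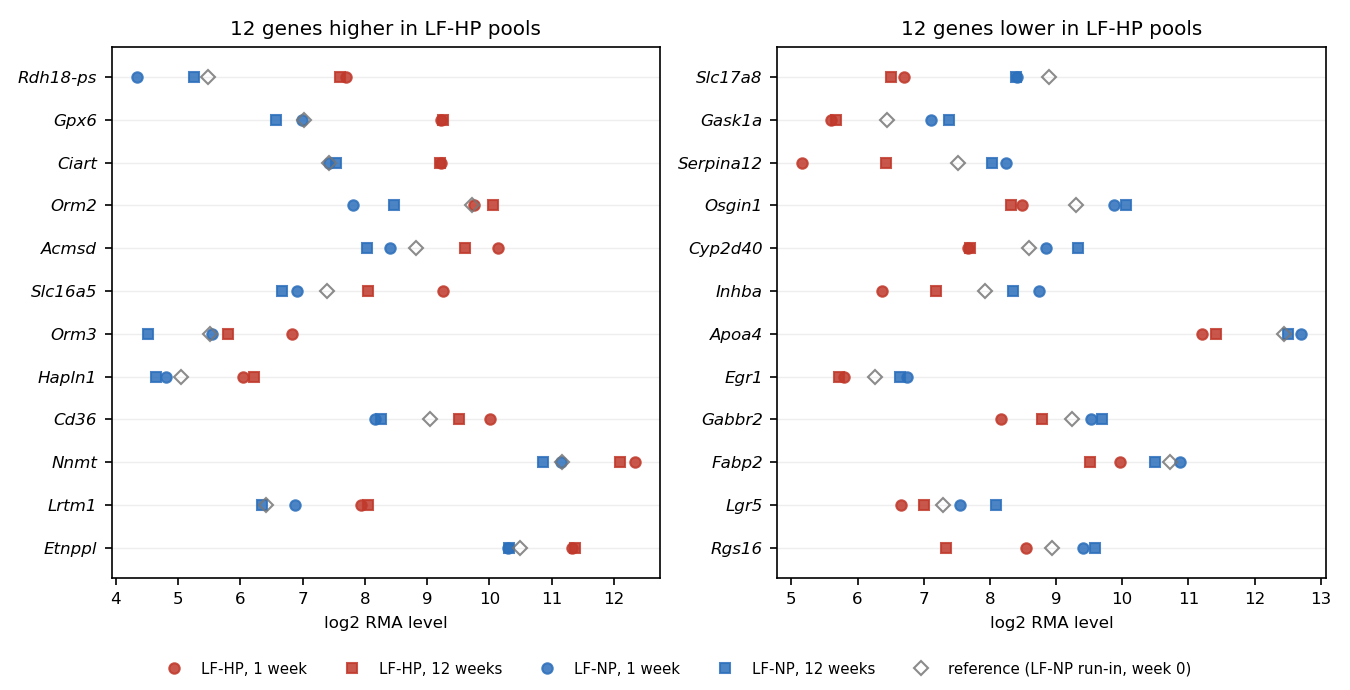
Log2 RMA level (x axis) of the 12 higher and 12 lower genes chosen by the naming rule, in LF-HP, LF-NP and reference pools, 1 symbol per pool. In every row both LF-HP symbols lie to one side of all 3 LF-NP-fed pools, which the rule required of all but Slc17a8 and Gask1a.

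Ciart is shown with its promoter because the clock regulators CLOCK and BMAL1 bind the E-box CACGTG, which was searched on both strands in the 250 bases before the start. Capitals mark the match.
Ciart (chr3:95882294-95882389, minus strand): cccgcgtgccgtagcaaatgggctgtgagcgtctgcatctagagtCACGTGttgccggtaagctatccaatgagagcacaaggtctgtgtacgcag
The E-box was present in 5 of 16 clock genes with a promoter (31.2%), against 6.86% of 27025 RefSeq genes (GRCm38.p6). A match is a description of letters and not of binding, and the search used no expression values. Of 18 measured clock genes, 2 were higher at both weeks and 6 lower (11.1% and 33.3%, against 21.2% and 30.2% of all genes). Noct, the rhythmically expressed gene of nocturnin, was at 9.53 and 9.50 in LF-HP livers, against 8.33 and 8.49 in LF-NP livers (1.11 ± 0.17, adjusted p = 0.18). Per1 was at 8.70 and 7.94 in LF-HP livers, against 8.13 and 8.05 in LF-NP livers, so its direction differed between the weeks. Clock was at 9.18 and 8.79 in LF-HP livers, against 8.95 and 9.03 in LF-NP livers.

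Genes of branched-chain amino acid breakdown were mostly higher in LF-HP livers, by small amounts, and the other amino acid lists differed in how far they shared this. Single genes named within this and the following lists were in part chosen after their values were seen. Of 22 branched-chain genes, 15 were higher and 2 lower at both weeks (68.2% and 9.09%, against 21.2% and 30.2% of all genes). Of the 22, 8 lay above all 3 LF-NP-fed pools (36.4%, against 8.38% of all genes). An unadjusted p under 0.05 in the higher direction was found for 10 (45.5%, against 2.97% of all genes), and 0 passed the adjusted test. The median difference of the 22 was 0.20 (0.25 at 1 week and 0.15 at 12 weeks), against -0.01 over all genes. Bckdhb, a subunit of the branched-chain ketoacid dehydrogenase that commits these amino acids to breakdown, was at 10.87 and 10.71 in LF-HP livers, against 10.45 and 10.29 in LF-NP livers and 10.41 in the reference pool. Hsd17b10, an enzyme of isoleucine breakdown, was at 11.85 and 11.35 in LF-HP livers, against 11.31 and 11.10 in LF-NP livers. The LF-HP pool at 12 weeks was below the reference pool for Hsd17b10 (11.45), so the groups overlap there.

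Of 13 aminotransferase and glutamate genes, 11 were higher and 2 lower at both weeks (84.6% and 15.4%, against 21.2% and 30.2% of all genes). Got1, cytosolic aspartate aminotransferase, was at 12.91 and 12.31 in LF-HP livers, against 12.11 and 11.70 in LF-NP livers and 12.20 in the reference pool (0.70 ± 0.16, adjusted p = 0.255). Oat, which feeds ornithine carbon to glutamate, was at 12.64 and 12.27 in LF-HP livers, against 12.02 and 11.67 in LF-NP livers and 12.07 in the reference pool. Agxt, which converts glyoxylate to glycine, was at 9.83 and 9.59 in LF-HP livers, against 9.12 and 8.98 in LF-NP livers and 9.38 in the reference pool. None of these 3 passed the adjusted test.

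The urea cycle list had 5 of 9 genes higher and 0 lower at both weeks (55.6% and 0%, against 21.2% and 30.2% of all genes). Its median difference was 0.18, against 0.14 for the aminotransferase and glutamate list. Otc, ornithine transcarbamylase, was at 11.09 and 11.14 in LF-HP livers, against 10.57 and 10.83 in LF-NP livers and 10.92 in the reference pool (0.41 ± 0.08). Cps1, the entry enzyme, was at 13.48 and 13.46 in LF-HP livers, against 13.24 and 13.23 in LF-NP livers and 13.29 in the reference pool, a gap of 0.23 in both weeks. Of 16 genes of the methionine cycle and transsulfuration, 9 were higher and 2 lower at both weeks (56.2% and 12.5%). Of the 16, 6 lay above and 2 below all 3 LF-NP-fed pools (37.5% and 12.5%, against 8.38% and 12.7% of all genes). The share below was thus near that of all genes. Cth, of the transsulfuration step to cysteine, averaged a difference of 0.57 ± 0.11, while Csad, of taurine synthesis, was at 8.32 and 7.70 in LF-HP livers, against 8.91 and 9.24 in LF-NP livers and 9.15 in the reference pool. Lysine breakdown by Aass had a difference of 0.55 ± 0.12, and Ethe1, of sulfide oxidation, 0.80 ± 0.13. Ppargc1a, a coactivator of gluconeogenic and mitochondrial genes, was at 9.15 and 8.68 in LF-HP livers, against 7.90 and 8.18 in LF-NP livers and 8.48 in the reference pool.

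Other amino acid lists were less even. Over all genes, 21.2% were higher and 30.2% lower at both weeks, and 8.38% lay above all 3 LF-NP-fed pools. Phenylalanine, tyrosine and histidine breakdown had 9 of 12 genes higher and 1 lower at both weeks (75% and 8.33%). In that list, 7 lay above all 3 LF-NP-fed pools (58.3%). Lysine and proline metabolism had 8 of 12 higher and 3 lower (66.7% and 25%). Tryptophan breakdown and NAD synthesis had 10 of 20 higher and 7 lower (50% and 35%), the lower share being near that of all genes. Serine, glycine and threonine metabolism had 9 of 19 higher (47.4%), 3 lower (15.8%) and 7 of differing direction, with a median difference of 0.05. In the tryptophan list, Tdo2, which opens the tryptophan ring, had a difference of 0.28 ± 0.10. Aox3, an aldehyde oxidase that acts on nicotinamide derivatives, was at 10.92 and 10.99 in LF-HP livers, against 11.47 and 11.59 in LF-NP livers and 11.43 in the reference pool. Gnmt of the methionine cycle list, which methylates glycine, was at 12.92 and 12.72 in LF-HP livers, against 12.53 and 12.36 in LF-NP livers and 12.46 in the reference pool.

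Amino acid transporters were not uniform: 13 of 33 were higher at both weeks and 8 lower (39.4% and 24.2%, against 21.2% and 30.2% of all genes). Slc7a2, a cationic amino acid transporter, was at 12.16 and 11.71 in LF-HP livers, against 11.13 and 11.13 in LF-NP livers and 11.48 in the reference pool (0.81 ± 0.16). Slc43a1, a neutral amino acid transporter, was at 8.50 and 8.23 in LF-HP livers, against 7.81 and 7.36 in LF-NP livers. Slc7a7, the light chain of a cationic amino acid exchanger, lay the other way, at 5.49 and 5.59 in LF-HP livers, against 6.00 and 6.32 in LF-NP livers.

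Genes of sugar use were mostly lower in LF-HP livers. Of 23 genes of glycolysis, fructose and glycogen, 13 were lower and 3 higher at both weeks (56.5% and 13%, against 30.2% and 21.2% of all genes). Of the 23, 11 lay below all 3 LF-NP-fed pools (47.8%, against 12.7% of all genes), while 0 passed the adjusted test. The median difference was -0.15 (-0.14 at 1 week and -0.19 at 12 weeks). Pklr, liver pyruvate kinase, was at 10.58 and 11.25 in LF-HP livers, against 11.96 and 11.91 in LF-NP livers and 11.47 in the reference pool (-1.02 ± 0.18, adjusted p = 0.209). Its promoter holds the letters CACGNG and CNCGTG, 5 bases apart, a form of the carbohydrate response element, with capitals marking the match and the bases between.
Pklr (chr3:89136408-89136514, plus strand): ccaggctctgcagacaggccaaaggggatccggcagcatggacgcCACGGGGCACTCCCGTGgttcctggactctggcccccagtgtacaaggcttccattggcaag
This motif, searched on both strands over the same 250 bases, was in 1 of 20 sugar genes with a promoter (5%), which was Pklr itself. It was in 0 of 19 lipogenic genes and in 0.0444% of all genes. In Pklr the LF-HP pools did not overlap any LF-NP-fed pool.

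Khk, which phosphorylates fructose, was at 10.45 and 10.77 in LF-HP livers, against 11.17 and 11.24 in LF-NP livers and 10.91 in the reference pool (-0.60 ± 0.09). Tkfc, which acts after Khk in fructose breakdown, was at 10.89 and 11.38 in LF-HP livers, against 11.76 and 11.81 in LF-NP livers and 11.63 in the reference pool. Gpd2, mitochondrial glycerol-3-phosphate dehydrogenase, was at 8.87 in both LF-HP pools, against 9.44 and 9.53 in LF-NP livers and 9.44 in the reference pool (-0.62 ± 0.08, adjusted p = 0.139). Among members that were higher, the glycolytic Pgk1 had a difference of 0.26 ± 0.09.

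Lipogenic genes differed less evenly. Of 25 genes, 11 were lower and 1 higher at both weeks (44% and 4%, against 30.2% and 21.2% of all genes). Of the 25, 7 lay below all 3 LF-NP-fed pools (28%, against 12.7% of all genes), and the median difference was -0.16. Mlxipl, the gene of ChREBP, was at 10.52 and 10.33 in LF-HP livers, against 10.97 and 11.01 in LF-NP livers and 10.88 in the reference pool (-0.56 ± 0.10, adjusted p = 0.217). Elovl6, a fatty acid elongase, was at 11.16 and 11.50 in LF-HP livers, against 11.89 and 11.85 in LF-NP livers, and Acaca, acetyl-CoA carboxylase, was at 9.65 and 9.94 in LF-HP livers, against 10.26 and 10.34 in LF-NP livers. Fasn, fatty acid synthase, and Acly, which makes cytosolic acetyl-CoA, were lower in LF-HP at 1 week alone. Fasn was at 11.07 and 12.36 in LF-HP livers, against 11.95 and 12.19 in LF-NP livers. Acly was at 9.65 and 10.62 in LF-HP livers, against 10.35 and 10.36 in LF-NP livers. Srebf1 was at 10.08 and 10.93 in LF-HP livers, against 10.90 and 11.06 in LF-NP livers and 10.30 in the reference pool.

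Cholesterol synthesis genes were higher in LF-HP livers at both weeks in 16 of 21 genes and lower at both in 0 (76.2% and 0%, against 21.2% and 30.2% of all genes). Of the 21, 9 lay above all 3 LF-NP-fed pools (42.9%, against 8.38% of all genes). In the higher direction, 9 were past an unadjusted p of 0.05 (42.9%, against 2.97% of all genes). The adjusted test called 0 of them. The median difference was 0.32, 0.34 at 1 week and 0.38 at 12 weeks. Msmo1, a sterol demethylating oxidase, was at 9.41 and 9.49 in LF-HP livers, against 8.64 and 8.48 in LF-NP livers and 9.29 in the reference pool (0.90 ± 0.12, adjusted p = 0.139). Sqle, squalene epoxidase, was at 8.10 and 8.40 in LF-HP livers, against 7.42 and 6.89 in LF-NP livers and 7.96 in the reference pool (1.09 ± 0.22). Idi1, isopentenyl diphosphate isomerase, was at 8.86 and 9.04 in LF-HP livers, against 8.52 and 8.21 in LF-NP livers and 8.72 in the reference pool. Mvd had a mean difference of 0.72 and Hmgcs1 of 0.40, and the Hmgcs1 reference pool (9.04) was above both LF-HP pools (8.93). The letters CCAAT, searched on both strands, are a common partner motif of SREBP-2 and occurred in 17 of 17 sterol genes with a promoter, against 37.5% of all genes. That share describes the members of the list and not the difference between diets, since the search used no expression values. A stretch of Idi1 is shown, with its 2 matches in capitals.
Idi1 (chr13:8885516-8885605, plus strand): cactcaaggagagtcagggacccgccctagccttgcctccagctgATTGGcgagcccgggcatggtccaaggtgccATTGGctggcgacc
The reference pool was between the LF-NP and LF-HP pools for Msmo1, Sqle, Idi1 and Mvd. By list mean, the level was 9.115 and 9.172 in LF-HP livers and 8.813 and 8.766 in LF-NP livers. It was 9.068 in the reference pool, so this LF-NP-fed pool lay closer to the LF-HP pools than to the LF-NP pools.

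Targets of PPARA were higher in LF-HP than in LF-NP livers mainly at 1 week, and by list mean the reference pool lay beside the LF-HP pool of that week. Of 21 genes, 9 were higher and 5 lower at both weeks (42.9% and 23.8%, against 21.2% and 30.2% of all genes). Of the 21, 1 lay above all 3 LF-NP-fed pools (4.76%, against 8.38% of all genes) and 5 below all 3 (23.8%, against 12.7%). The median difference was 0.37 at 1 week and 0.01 at 12 weeks. Cyp4a31, a fatty acid omega-hydroxylase, was at 12.38 and 11.80 in LF-HP livers, against 10.23 and 10.55 in LF-NP livers, but 11.92 in the reference pool. Cyp4a10 was at 12.64 and 11.87 in LF-HP livers, against 11.63 and 11.12 in LF-NP livers and 12.44 in the reference pool. Acot3, a peroxisomal thioesterase, was at 8.56 and 7.69 in LF-HP livers, against 6.83 and 7.08 in LF-NP livers and 7.86 in the reference pool. For these genes the reference pool, fed LF-NP, was within the LF-HP range. Over the list, the mean level was 10.33 and 9.81 in LF-HP livers, 9.75 and 9.73 in LF-NP livers and 10.30 in the reference pool, so the LF-HP pool at 12 weeks was close to the LF-NP pools. The Cyp4a genes are close copies and their probes may share signal. Ppara itself was at 10.57 and 10.44 in LF-HP livers, against 10.62 and 10.66 in LF-NP livers.

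Of the 23 genes of the fatty acid oxidation list, 11 were higher and 2 lower at both weeks (47.8% and 8.7%). However, 0 of the 23 lay above or below all 3 LF-NP-fed pools, against 8.38% and 12.7% of all genes. Genes of gluconeogenesis and its regulators had 6 of 21 higher and 7 lower (28.6% and 33.3%, against 21.2% and 30.2% of all genes). The insulin, glucagon and IGF list had 3 of 23 higher and 10 lower (13% and 43.5%).

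**Figure D3:**
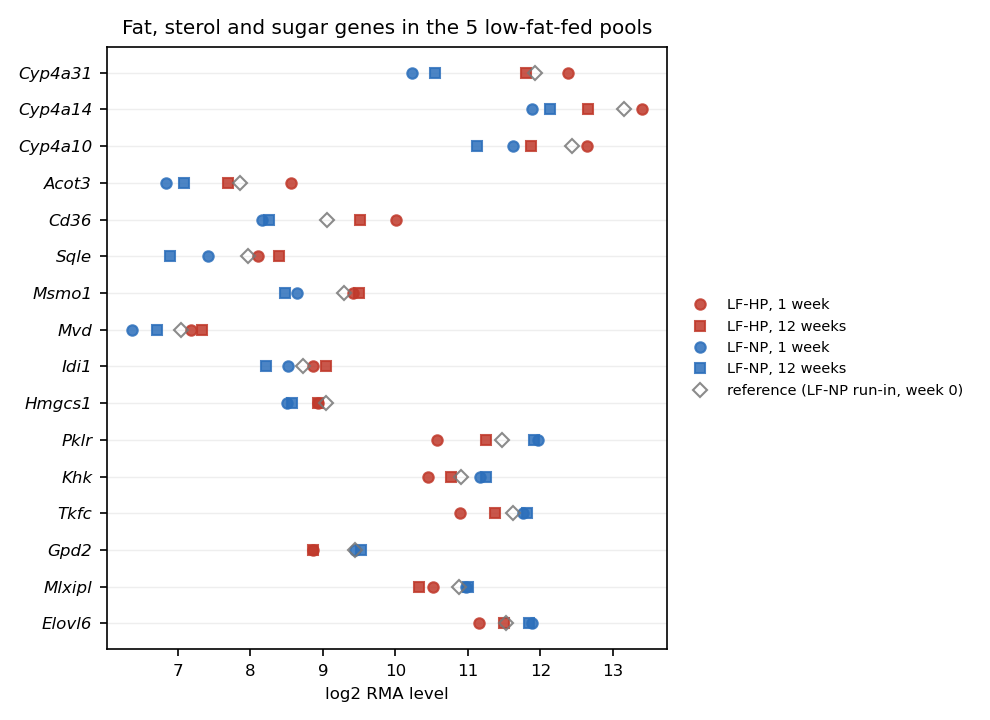
Log2 RMA level (x axis) of PPARA target, sterol and sugar genes in the 5 low-fat-fed pools, 1 symbol per pool. For Cyp4a31, Cyp4a14, Cyp4a10 and Acot3 the reference pool (diamond) lies between or beside the LF-HP pools, while for Pklr and Gpd2 it lies on the LF-NP side of both LF-HP pools.

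Mitochondrial genes were higher by small steps. Over all genes, 21.2% were higher and 30.2% lower at both weeks. Of 24 citric acid cycle genes, 20 were higher and 3 lower at both weeks (83.3% and 12.5%, median difference 0.12). Of 40 respiratory chain and ATP synthase genes, 35 were higher and 1 lower (87.5% and 2.5%, median 0.16). Of the 40, 20 lay above all 3 LF-NP-fed pools (50%, against 8.38% of all genes). Idh2, mitochondrial isocitrate dehydrogenase, was at 10.49 and 10.26 in LF-HP livers, against 9.93 and 9.83 in LF-NP livers and 9.89 in the reference pool. Uqcrb, a subunit of complex III, was at 12.13 and 12.29 in LF-HP livers, against 11.76 and 11.79 in LF-NP livers and 12.06 in the reference pool (0.44 ± 0.08). Fh1 and Ndufa5 had mean differences of 0.48 and 0.41.

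Detoxification genes divided by family. Glutathione S-transferases were higher in 12 of 18 at both weeks and lower in 2 (66.7% and 11.1%, against 21.2% and 30.2% of all genes). Of the 18, 11 lay above all 3 LF-NP-fed pools (61.1%, against 8.38%), and the median was 0.23. Gstt3 was at 9.96 and 9.23 in LF-HP livers, against 8.76 and 8.59 in LF-NP livers and 8.48 in the reference pool, and Gstm2 had a difference of 0.64 ± 0.13. Carboxylesterases were lower at both weeks in 10 of 14 (71.4%, against 30.2% of all genes), with 9 below all 3 LF-NP-fed pools (64.3%, against 12.7%). Their median was -0.16, and Ces2g was at 8.55 and 8.66 in LF-HP livers, against 9.24 and 9.00 in LF-NP livers. These families hold close copies, whose probes may share signal. The UGT, sulfotransferase and FMO list had a median of 0.16 in this comparison, with 12 of 22 higher and 5 lower at both weeks (54.5% and 22.7%).

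Interferon response genes were lower in LF-HP livers. Of 31 genes, 30 were lower at both weeks and 0 higher (96.8% and 0%, against 30.2% and 21.2% of all genes). Of the 31, 22 lay below all 3 LF-NP-fed pools (71%, against 12.7% of all genes). In the lower direction, 16 were past an unadjusted p of 0.05 (51.6%, against 6.38% of all genes). The adjusted test called 0 of them. The median difference was -0.33 (-0.32 at 1 week and -0.35 at 12 weeks). Mx2, an antiviral GTPase, was at 4.55 and 4.77 in LF-HP livers, against 5.51 and 5.64 in LF-NP livers and 5.59 in the reference pool (-0.92 ± 0.18, adjusted p = 0.231). Ifit1, an antiviral RNA binder, was at 6.82 and 6.66 in LF-HP livers, against 7.37 and 7.43 in LF-NP livers and 7.50 in the reference pool. The LF-HP pools of both genes lay below all 3 LF-NP-fed pools. Rsad2, an antiviral enzyme, was at 6.29 and 6.27 in LF-HP livers, against 7.08 and 6.79 in LF-NP livers and 7.10 in the reference pool (-0.65 ± 0.11). Irf9, part of the complex that turns on these genes, was at 7.66 and 7.49 in LF-HP livers, against 8.11 and 8.24 in LF-NP livers and 8.24 in the reference pool. The one gene not lower at both weeks was Usp18, a negative regulator, at 8.39 and 8.05 in LF-HP livers, against 8.36 and 8.19 in LF-NP livers.

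The interferon-stimulated response element was searched as GAAA and GAAA, 2 bases apart, on both strands in 250 bases before the start. It was in 11 of 20 interferon genes with a promoter (55%), against 3.46% of all genes. The search used no expression values, so this share describes the members of the list and not the difference between diets. Stretches of Ifit1 and Rsad2 are shown for their matches, in capitals, which read as the reverse complement.
Ifit1 (chr19:34640740-34640858, plus strand): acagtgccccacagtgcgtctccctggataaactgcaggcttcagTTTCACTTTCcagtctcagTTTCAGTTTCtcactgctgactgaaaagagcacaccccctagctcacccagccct
Rsad2 (chr12:26456518-26456617, minus strand): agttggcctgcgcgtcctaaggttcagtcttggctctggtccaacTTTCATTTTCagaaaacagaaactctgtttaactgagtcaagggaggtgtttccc
Ifit1 holds 2 matches and Rsad2 holds 1.

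Kupffer cell and macrophage markers were also lower. Of 14, 13 were lower at both weeks (92.9%, against 30.2% of all genes) and 0 higher. An unadjusted p under 0.05 in the lower direction was found for 10 (71.4%, against 6.38%), and 5 lay below all 3 LF-NP-fed pools (35.7%, against 12.7%). The median difference was -0.47, -0.35 at 1 week and -0.45 at 12 weeks. Adgre1, a macrophage surface receptor, was at 6.84 and 6.94 in LF-HP livers, against 7.42 and 7.68 in LF-NP livers and 7.14 in the reference pool (-0.66 ± 0.08, adjusted p = 0.139). Clec4f, a Kupffer cell lectin, was at 8.58 and 8.77 in LF-HP livers, against 9.05 and 9.29 in LF-NP livers and 8.97 in the reference pool. Timd4 and Cd5l were lower by 0.55 and 0.48 on the log2 scale, and Cd68, a lysosomal macrophage antigen, was at 6.98 and 7.48 in LF-HP livers, against 7.49 and 7.97 in LF-NP livers and 7.18 in the reference pool. The Marco gene was the exception, at 4.97 and 5.12 in LF-HP livers, against 4.99 and 4.99 in LF-NP livers. The list's mean level was 7.47 and 7.77 in LF-HP livers, 7.82 and 8.20 in LF-NP livers and 7.66 in the reference pool, so the LF-HP pool at 12 weeks was above the reference pool. In whole liver RNA, fewer macrophages and less RNA per macrophage cannot be told apart, and the share of the interferon and antigen presentation differences that comes from them was not tested. Of 17 MHC and antigen presentation genes, 13 were lower and 3 higher at both weeks (76.5% and 17.6%, against 30.2% and 21.2% of all genes). T and NK cell markers were lower at both weeks in 9 of 12 (75%, against 30.2% of all genes, median -0.23). Their mean level was only 4.34 to 4.62 in all 9 pools, under the median of 5.85 over all genes. Liver endothelial markers were lower in 6 of 12 (50%, median -0.14) and stellate cell and fibroblast markers in 6 of 12 (50%, median -0.12). B and plasma cell markers were lower in 3 of 9 (33.3%, median -0.01), neutrophil markers in 4 of 10 (40%, median 0.01) and cholangiocyte markers in 2 of 7 (28.6%, median -0.06). Of the 12 hepatocyte markers, 2 were lower and 5 higher at both weeks (16.7% and 41.7%, median 0.03).

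Complement and coagulation genes, made for the most part by hepatocytes, were lower at both weeks in 26 of 36 and higher in 8 (72.2% and 22.2%, against 30.2% and 21.2% of all genes). Of the 36, 21 lay below all 3 LF-NP-fed pools (58.3%, against 12.7% of all genes). Their median was -0.12, and 4 were past an unadjusted p of 0.05 in the lower direction (11.1%, against 6.38% of all genes). C4bp, an inhibitor of complement, was at 10.92 and 11.14 in LF-HP livers, against 11.39 and 11.47 in LF-NP livers and 11.37 in the reference pool. C1s1, a protease of the first complement component, was at 9.96 and 10.18 in LF-HP livers, against 10.33 and 10.35 in LF-NP livers and 10.40 in the reference pool. For both genes the LF-HP pools lay below all 3 LF-NP-fed pools. The macrophage-expressed C1qa, C1qb and C1qc belong to this list and to the Kupffer cell list.

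The interferon and macrophage lists were set beside the high-fat pair, where the same genes were compared between HF-HP and HF-NP. There the median of the interferon list was -0.12, with 17 lower and 1 higher at both weeks, and the Kupffer list had a median of 0.18, with 8 higher and 0 lower at both weeks. Over all genes, 23.7% were higher and 19.9% lower at both weeks in the high-fat pair. The test of the difference between the low-fat and high-fat protein effects found 0 genes past the adjusted threshold (0%). At an unadjusted p under 0.05, 445 genes were above 0 (2.23%) and 955 below (4.79%), and 9 of the 14 Kupffer genes were below. For Adgre1 the difference between the 2 effects was -0.93 (adjusted p = 0.453, limma).

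**Figure D4:**
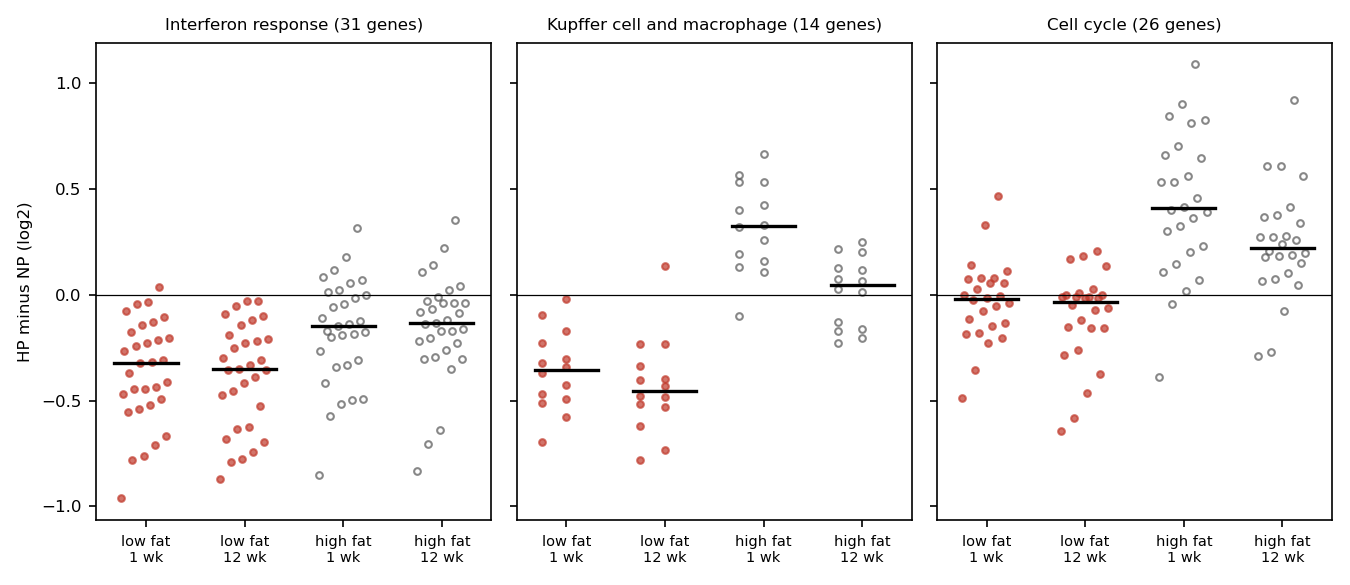
Difference of each gene between the high-protein and normal-protein pools (y axis, log2), at 1 and 12 weeks on the low-fat and high-fat backgrounds, 1 point per gene with the median as a bar, for 31 interferon, 14 macrophage and 26 cell cycle genes. Interferon medians lie below 0 in all 4 columns, and macrophage medians lie below 0 on low fat and above 0 on high fat.

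Cell cycle genes differed little on the low-fat background. In the low-fat pair, 3 of 26 were higher and 11 lower at both weeks (median -0.04), against 21.2% and 30.2% of all genes. In the high-fat pair 22 of 26 were higher and 1 lower (median 0.35), against 23.7% and 19.9% of all genes. An unadjusted p under 0.05 for the difference between the 2 effects, below 0, was found for 14 of the 26, against 4.79% of all genes. Ccnd1, a cyclin of the growth response, was at 8.25 and 8.18 in LF-HP livers, against 8.74 and 8.64 in LF-NP livers and 8.79 in the reference pool, and at 9.50 and 8.81 in HF-HP livers, against 8.69 and 8.47 in HF-NP livers. Asns, asparagine synthetase, which was picked after its values were seen, was at 5.99 and 5.85 in LF-HP livers, against 5.89 and 5.73 in LF-NP livers, and at 8.78 and 7.21 in HF-HP livers, against 5.71 and 5.21 in HF-NP livers. Asns has 0.11 ± 0.33 on the low-fat background and an unadjusted p of 0.00142 for the difference between backgrounds (adjusted p = 0.541). Gm10785, a predicted gene, had the smallest adjusted p of this test (0.0538, difference 1.97).

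**Figure D5:**
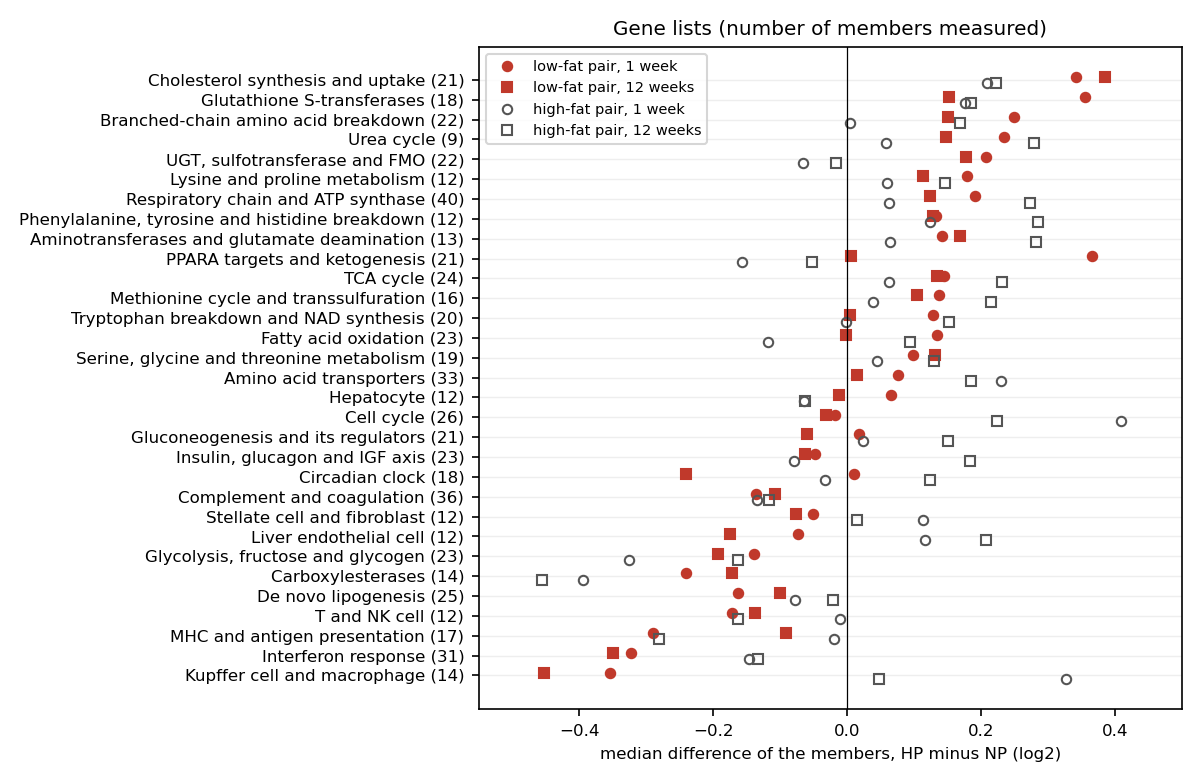
Median difference of the members of each of the 31 lists followed here (x axis, log2) at 1 and 12 weeks on the low-fat and high-fat backgrounds, with the number of measured members in brackets. Medians of cholesterol synthesis lie at 0.34 and 0.38, and those of Kupffer cell and macrophage markers at -0.35 and -0.45, on the low-fat background at 1 and 12 weeks.

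Some genes differed at a single week. A 2-fold difference at 1 week with under 1.2-fold at 12 weeks was found for 13 higher and 4 lower genes, and at 12 weeks alone for 3 higher and 14 lower. Mt1, a metallothionein, was at 10.69 and 8.03 in LF-HP livers, against 8.64 and 8.07 in LF-NP livers and 8.62 in the reference pool, with the LF-HP pool at 1 week high. Fam107a was at 7.64 and 5.67 in LF-HP livers, against 5.87 and 5.57 in LF-NP livers. Gbp11 was at 5.91 and 6.54 in LF-HP livers, against 7.56 and 6.59 in LF-NP livers. In each of these the 1-week pools differ and the 12-week pools are close. At 12 weeks alone, Chrna4, a nicotinic receptor subunit, was at 7.28 and 8.18 in LF-HP livers, against 7.39 and 6.50 in LF-NP livers. Bcl6, a transcriptional repressor, was at 8.15 and 7.16 in LF-HP livers, against 8.03 and 8.75 in LF-NP livers, and Nr0b2, the nuclear receptor SHP, was at 8.30 and 7.24 in LF-HP livers, against 8.09 and 8.73 in LF-NP livers. For Muc1, at 4.83 and 4.88 in LF-HP livers and 4.72 and 6.52 in LF-NP livers, the 12-week difference rests on the LF-NP pool that stood apart. With 1 pool per week and diet, differences at one week have no replicate.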

How the data were processed

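Liver RNA of 5 mice per pool was hybridised to Affymetrix Mouse Gene 1.0 ST arrays, 1 array per pool and 9 in all. The authors deposited log2 values computed by robust multiarray analysis (RMA), which corrects background, quantile normalises and summarises probe sets. Their methods describe probe sets remapped to Entrez genes, whereas the deposited identifiers are those of the array maker. Of 35556 probe sets, 21789 have 1 gene symbol, 1621 several and 12146 none; the first were analysed, the brightest per gene for 999 genes with several, giving 19938 genes. Array number limits the precision.

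A limma 3.58.1 (R 4.3.3) model with a mean per diet and a week term was fitted to the 8 diet pools (3 residual degrees of freedom, 3.64 prior), with LF-HP minus LF-NP as the contrast and Benjamini-Hochberg adjustment (adjusted p under 0.05). Week was the pairing, since pools of 1 week share age and feeding time. The test was run on simulated data first. Named genes were those past the test, filled to 12 per direction by the smaller week difference among genes outside all 3 LF-NP-fed pools. The members and the 52 gene lists (123 of 1131 entries without a value) were chosen with earlier results of these data known. Alternatives were week left out, low-fat pools alone, the reference pool added, limma trend, robust and weighted fits, centring, a level filter, mean of probe sets, renewed quantile normalisation and leaving out each pool.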

Additional observations from a re-analysis of the deposited data

Results flagged for a closer look

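Of 112 genes followed by name, 10 had a high-protein difference that pointed one way on the low-fat background and the other way on the high-fat background, at both weeks (8.93%, against 10% of all 19938 genes). The difference between the 2 effects was tested in the same limma fit, and none of the 10 passed after adjustment. The values, low-fat minus high-fat (log2), were 1.97 for Gm10785 (adjusted p = 0.0538), 0.43 for Otc (adjusted p = 0.674), 0.53 for Uqcrb (adjusted p = 0.547) and, below 0, -0.93 for Slc7a7 (adjusted p = 0.541), -0.67 for Timd4 (adjusted p = 0.547), -0.74 for Cd5l (adjusted p = 0.541), -0.93 for Adgre1 (adjusted p = 0.453), -0.65 for Csf1r (adjusted p = 0.644), -0.77 for Cd68 (adjusted p = 0.608) and -1.05 for Ccnd1 (adjusted p = 0.547). Some of these rest on small values on the high-fat background, such as -0.0068 and -0.0195 for Otc.

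The medians of 6 of the 31 lists followed here pointed opposite ways on the 2 backgrounds at both weeks, and over all 52 lists 7 did. The difference was not tested for lists. Low-fat minus high-fat, it was -0.64 for Kupffer cell and macrophage markers, -0.39 for the cell cycle, -0.28 for liver endothelial cells, -0.19 for stellate cells and fibroblasts, 0.21 for UGT, sulfotransferase and FMO genes and 0.18 for PPARA targets and ketogenesis, whose low-fat median at 12 weeks was only 0.01.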

How the results depend on the processing

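With 2 pools a side the calls depend on the fit. The count of genes higher in LF-HP was 0 in the main fit and 4 at an adjusted p under 0.1, 3 with the reference pool added to LF-NP and no replicate block, 5 with an intensity trend, 4 with array weights, 4 with arrays centred, 4 after quantile normalisation again and 13 among genes above the median level. The count of genes lower was 2, and it was 0 with the 4 low-fat pools alone and week as block, 1 with no replicate block in the 8 diet pools, 0 with no replicate block in the 4 low-fat pools, 4 with the intensity trend, 4 with centring and 21 above the median level. Leaving out each pool in turn gave 0 to 1 lower genes; the 1, without LF-NP replicate 1, was Dmbt1. The count for the difference between backgrounds was 0, and it was 1 at an adjusted p under 0.1, with the trend and with the robust prior, 2 with centring and 2 above the median level, and 0 to 1 over left-out pools. The 2-fold rule in place of 1.5-fold gave 16 higher and 7 lower genes. The count of genes with both LF-HP pools above all 3 LF-NP-fed pools was 1670, and it was 763 above the median level and 2724 after renewed quantile normalisation. The causes were not tested. The level filter leaves fewer genes to adjust over and also changes the prior of the fit (4.29 prior degrees of freedom, against 3.64). The part of each was not tested.

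Slc17a8 and Gask1a kept their direction in all alternatives and each fell short of the threshold in 11 of 19. Of the values of list medians under the alternatives, each week alone included, 145 stayed within the spread between the weeks, 36 moved beyond it with the same sign and 5 changed sign. That spread was computed from the medians of the same 2 weeks. The values of each week alone thus fell within it largely by construction, and the 145 do not measure stability. For the median difference, Hepatocyte markers gave -0.0042 after renewed quantile normalisation and -0.0121 at 12 weeks, against 0.03; for the median difference, Gluconeogenesis and its regulators gave 0.0177 at 1 week, against -0.05; for the median difference, Fatty acid oxidation gave -0.0012 at 12 weeks, against 0.07; and for the median difference, Circadian clock gave 0.0106 at 1 week, against -0.10. Over left-out pools, differences changed sign for some genes, among them Clock, Per1 and Acly, whose 2 weeks pointed opposite ways. The ranges were Mt1 -0.17 to 2.17, Mt2 -0.86 to 2.28, Serpina4-ps1 -1.50 to 0.0172, Chrna4 -0.0017 to 1.57, Muc1 -1.68 to 0.15, Nr0b2 -1.31 to 0.0212, Gabrp -1.40 to 0.0683, Adgrg7 -1.45 to 0.18, Asns -0.19 to 0.42, Acly -0.66 to 0.21, Fasn -0.93 to 0.22, Mvk -0.0261 to 0.24, Stat2 -0.36 to 0.0018, Usp18 -0.16 to 0.0542, Per1 -0.1284 to 0.5932, Clock -0.1978 to 0.1807 and Marco -0.0367 to 0.15. Usp18 was also at 0.0173 and Clock at 0.0584 after renewed quantile normalisation. For Asns the value was -0.17 without LF-NP replicate 1.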
